A study of Rattus norvegicus with 18 samples.

Results

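Interleukin 33 (Il33), proenkephalin (Penk), the GDNF family receptor Gfra3, the tetraspanin Tspan8 and the matrix protein Sparc are 5 genes for secreted signals, surface proteins and extracellular matrix whose RNA differs between stages of the early rat germ line. They were taken as the 5 rows with these symbols among 32545 rows of the series' expression table, and they were chosen by those same RPKM values, for a level that differed between stages in these libraries. Their levels are therefore given as a description, without a test. The data comprised 18 libraries from rats of the strain Crlj:WI, all of the genotype Prdm14-Venus, a fluorescent reporter named for the germ line regulator Prdm14. Primordial germ cells (PGC), from which sperm and eggs descend, gave 12 of them, with 2 libraries each at embryonic day (E) 9.5, 10.5, 11.5 and 12.5, whose sex is not labelled, and 2 female and 2 male libraries at E15.5. The other 6 came from epiblast, the pluripotent layer from which the germ line arises, with 3 libraries at E7.25 and 3 at E7.75, on each day 1 female and 2 male. The sources used here do not give how the cells were collected or pooled, or which sequences drive the reporter.

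Germ cells form at the posterior end of the embryo, migrate through the hindgut to the genital ridges, and there lose pluripotency as they commit to oogenesis or spermatogenesis. On the way they read signals from neighbouring cells through surface receptors and move through extracellular matrix. IL-33 is a cytokine of the IL-1 family that is held in the nucleus, is released from damaged cells and is read by the receptor ST2 (Il1rl1) with its co-receptor Il1rap. Penk is cut into enkephalins, peptides that act on opioid receptors. GFRA3 is the membrane-anchored co-receptor that binds artemin (Artn) and signals with the tyrosine kinase RET. Tetraspanins such as TSPAN8 arrange integrins and other proteins in the membrane, and SPARC is a secreted protein that binds collagen and calcium.

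Values were RPKM, read numbers divided by gene length and by the mapped reads of each library. Relative depth, taken as the ratio that low values most often showed between libraries, was 20.7% to 22.95% of the E7.75 female library's at E10.5 and E11.5 (4 libraries), and 82.6% to 120.9% in the other 14. Fau, a ribosomal gene of nearly every cell, was listed at 0 in all 18 libraries and Hprt1 in 11, and Gapdh, a glycolytic enzyme of every cell, at 0.0632 to 2.08 RPKM. A 0 or a value near 0 is therefore given only as listed and does not show that an RNA was absent. The 9 germ cell markers, among them Nanos3, Tfap2c and Kit, summed to 426 to 1873 RPKM in PGC libraries and 21.0 to 43.4 RPKM in epiblast libraries. At E9.5 against E7.75 epiblast, 7 of the 9 passed the limma test as higher and 1 as lower, beside 16.3% and 11.3% of all tested genes. Ddx4 averaged 1.25 RPKM at E9.5, against 22.5 and 5.89 RPKM in E7.25 and E7.75 epiblast, and Dazl at most 0.984 RPKM in the same groups. Dppa3 averaged 0.268 and 0.491 RPKM at E10.5 and E11.5 and 0.395 RPKM in male E15.5 PGC. It averaged 83.7 RPKM at E12.5 and 61.6 RPKM in female E15.5 PGC, and its E9.5 libraries held 0.106 and 31.3 RPKM. In male E15.5 PGC, Dazl and Ddx4 averaged 1042 and 369 RPKM. The 2 libraries of E9.5 stood apart in markers of other cell types. Their 12 mesenchyme and mesothelium markers summed to 175 and 176 RPKM, against 1.05 to 24.7 RPKM in the other 16 libraries, and Col1a2, a fibroblast collagen, was listed at 0 in every library. At E9.5 the largest of these markers were Prrx2 and Twist1, with means of 118 and 30.6 RPKM. Col1a1, Pdgfra, Prrx1 and Postn averaged 2.02 to 9.12 RPKM there. Col3a1, Dcn, Lum and the mesothelium markers Upk3b and Msln averaged at most 0.531 RPKM. In the E9.5 libraries the 11 endothelium markers summed to 60.2 and 219 RPKM, against 3.74 to 26.8 RPKM elsewhere, and the 5 extraembryonic mesoderm markers to 523 and 543 RPKM, against 4.05 to 237 RPKM elsewhere. Of the extraembryonic mesoderm markers, Tbx4, Hand1, Foxf1 and Pitx1 were highest at E9.5. Bmp4 was not, with means of 150.5 RPKM at E9.5 and 199, 178 and 142 RPKM at E10.5, E11.5 and E12.5.

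The highest group mean of each gene fell at a different stage, except for Il33 and Tspan8, which were both highest at E12.5. Sparc was highest at E9.5, Penk at E10.5 and Gfra3 in female E15.5 PGC. For comparison, each of the 8 groups held the highest mean of between 6.76% (E11.5) and 18.6% (female E15.5) of the 14865 genes tested. Il33 reached 50% of its highest mean in 1 of the 8 groups, Penk in 2, Sparc in 3, Tspan8 in 4 and Gfra3 in 5. Among 7126 tested genes whose highest group mean was at least 20 RPKM, 5.42% reached 50% of it in 1 group and 21.3% in all 8. In these bulk libraries, fewer cells that carry an RNA and less of it per cell cannot be told apart. The share of all tested genes whose libraries do not overlap between groups is not given here. A lack of overlap is thus only a description of these 5 genes and does not set them apart. Between PGC and epiblast, 58.5% of all tested genes passed the limma test in either direction.

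**Figure D1:**
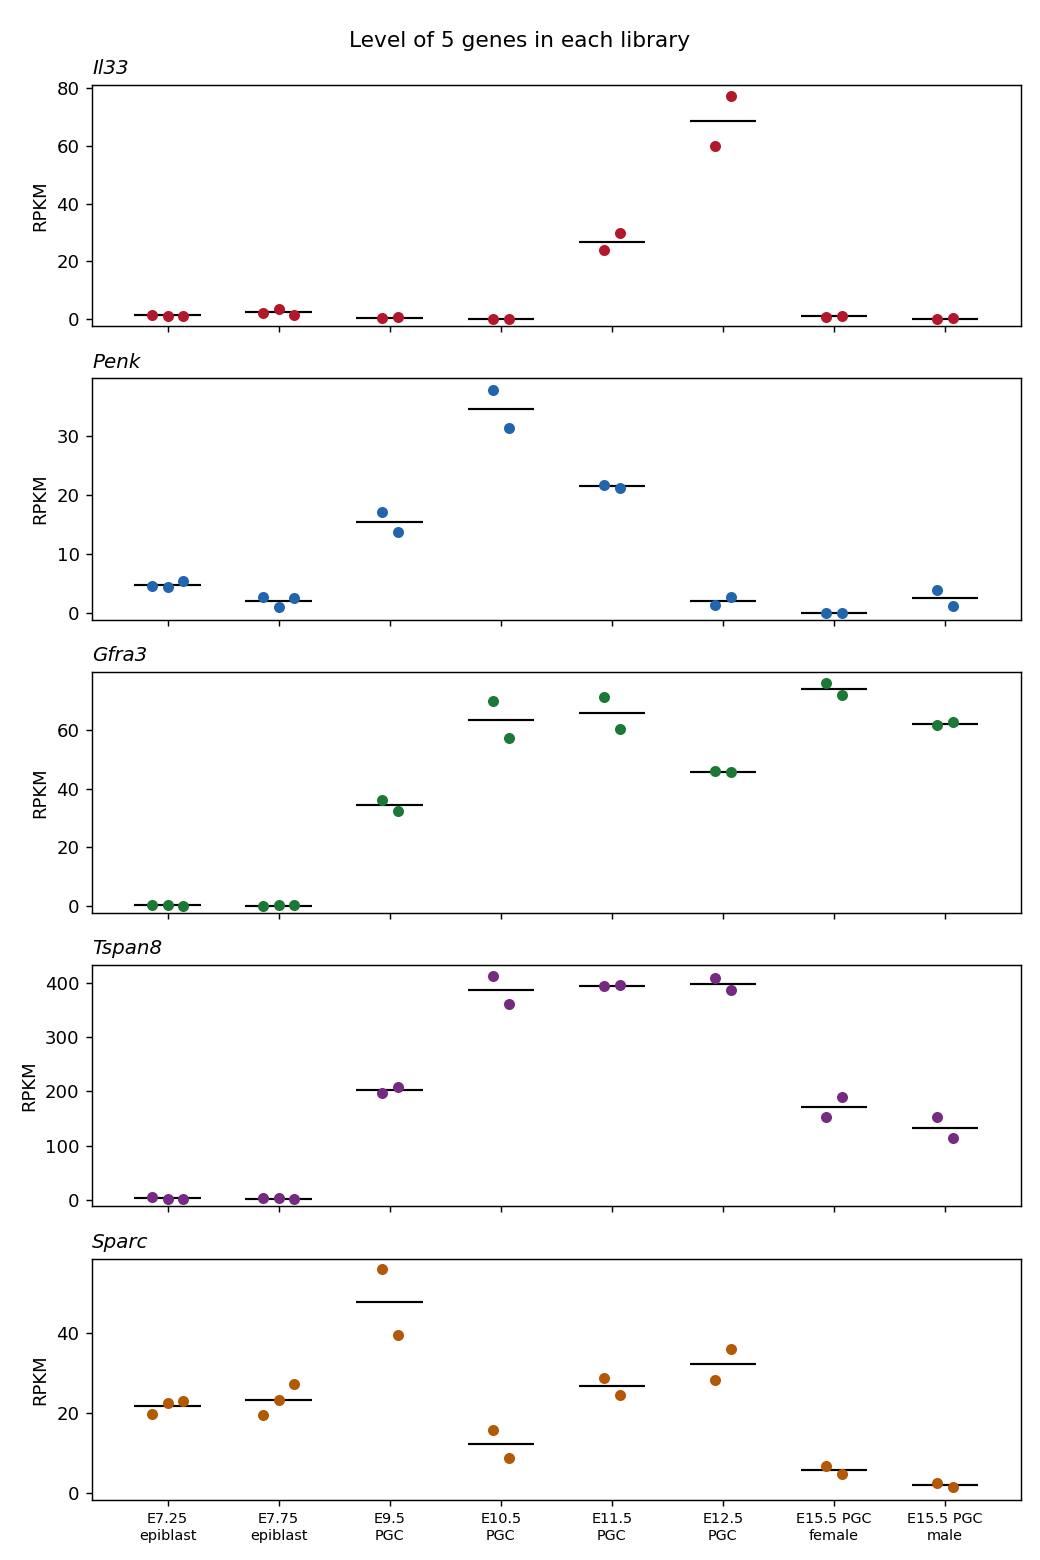
RPKM of Il33, Penk, Gfra3, Tspan8 and Sparc (vertical axes, linear, each with its own range) in the 18 libraries, by group along the horizontal axis. Points are libraries and horizontal bars are group means; Il33 stands above 20 RPKM in the 4 libraries of E11.5 and E12.5 alone, and Gfra3 and Tspan8 stand higher in every PGC library than in every epiblast library.

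**Figure D2:**
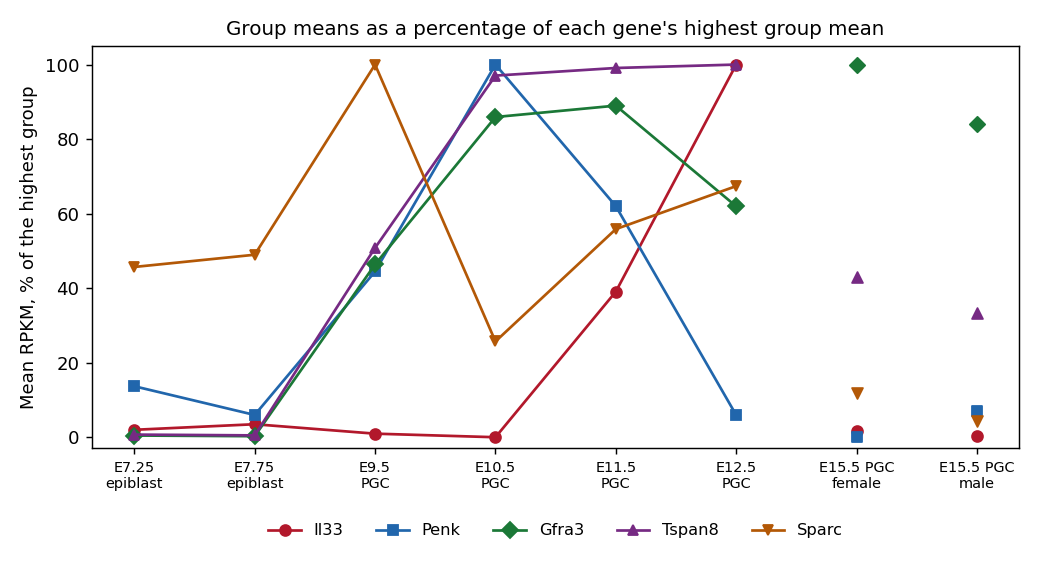
Group means of the 5 genes as a percentage of each gene's highest group mean (vertical axis), by group (horizontal axis), with lines joining E7.25 to E12.5 and single points for female and male E15.5 PGC. Sparc peaks at E9.5, Penk at E10.5 and Il33 at E12.5, whereas Tspan8 stays at 97.0% to 100% from E10.5 to E12.5.

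Il33 (ENSRNOG00000016456) had the narrowest window of the 5 genes. It stood at 23.8 and 29.7 RPKM in the E11.5 libraries and at 59.9 and 77.1 RPKM in those of E12.5. In the 2 libraries of E10.5 it was listed at 0, and in those of E9.5 it had 0.454 and 0.856 RPKM. Epiblast libraries held 1.13 to 3.59 RPKM, which lay above both E9.5 values. By E15.5 it was down to 0.923 and 1.34 RPKM in female PGC and to 0 and 0.319 RPKM in male PGC. The 4 libraries of E11.5 and E12.5 thus did not overlap with any other, and the E12.5 pair lay above the E11.5 pair. The mean at E12.5 was 68.5 ± 12.2 RPKM, against 26.8 ± 4.15 RPKM at E11.5 (SD, n = 2 each), which is a 2.56-fold higher level. At E15.5 the mean was 0.645 ± 0.600 RPKM (SD, n = 4), against 68.5 ± 12.2 RPKM at E12.5, and 106-fold lower. Among tested genes Il33 ranked at the 69.3rd to 73.2nd percentile at E11.5 and at the 83.3rd to 86.8th at E12.5. The E10.5 and E11.5 libraries, between which Il33 appeared, are the 4 shallow ones. The E11.5 libraries listed 14.4% and 15.0% of tested genes at 0, and those of E10.5 21.4% and 21.6%.

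RefSeq lists 2 transcription starts for Il33 on chromosome 1 of the build GRCr8, and the gene-level values do not separate them. The 250 bases before each are shown, 5′ to 3′ on the plus strand, from chr1:237115323-237115572 and from chr1:237134696-237134945, because Il33 showed the narrowest window of stages. Capitals mark matches to GCCNNNGGC, the palindrome bound by AP-2 factors such as TFAP2C, and to TATAAA, the TATA box. CACGTG, an E-box, was searched too, all on both strands, and no matches overlapped.
Il33 upstream start: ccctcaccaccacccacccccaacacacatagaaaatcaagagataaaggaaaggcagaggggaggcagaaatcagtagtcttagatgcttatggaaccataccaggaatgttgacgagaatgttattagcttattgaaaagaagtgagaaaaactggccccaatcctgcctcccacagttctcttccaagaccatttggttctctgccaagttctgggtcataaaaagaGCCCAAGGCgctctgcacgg
Il33 downstream start: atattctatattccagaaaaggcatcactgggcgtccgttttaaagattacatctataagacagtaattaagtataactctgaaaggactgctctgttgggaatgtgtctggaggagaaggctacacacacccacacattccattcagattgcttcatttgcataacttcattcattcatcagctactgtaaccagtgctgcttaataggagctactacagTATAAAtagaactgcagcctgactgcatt
The first window held 1 match to the AP-2 palindrome, 20 to 12 bases before the start, and 3 CpG. The second held 1 TATAAA, 29 to 24 bases before the start, and 2 CpG. Of 33469 promoters in the RefSeq table, 12.6% hold GCCNNNGGC in the same 250 bases, 12.9% TATAAA and 5.59% CACGTG, with a median of 5 CpG.

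The co-receptor of IL-33 was measured at several RPKM in PGC, while its receptor was mostly listed at 0. Il1rl1 (ST2), the IL-33 receptor chain, was listed at 0 in 14 of the 18 libraries, including both E11.5 libraries and 1 of the 2 from E12.5, and its highest value was 1.01 RPKM in a female E15.5 library. It stayed under the level needed for a test. Il1rap averaged 6.61 ± 2.86 RPKM in PGC (SD, n = 12) and 1.91 ± 0.783 RPKM in epiblast (SD, n = 6), with overlap, a log2 fold change of 1.33 ± 0.19 (SE) and an adjusted p of 2.91e-05 by limma with Benjamini-Hochberg adjustment. It was highest in the E11.5 and E12.5 libraries, at 9.04 to 11.2 RPKM. Myd88, the adaptor of these receptors, had group means of at most 3.30 RPKM (E9.5).

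In PGC against epiblast, 7 of the 24 tested genes of IL-1 family signalling (of 32 listed) were higher and 5 lower, where 58.5% of all tested genes passed in either direction, 32.1% higher and 26.4% lower. The list's median log2 fold change was 0.21, beside 0.09 over all tested genes. At E9.5 against E7.75 epiblast 4 were higher and none lower, where 27.6% of all tested genes passed, 16.3% higher and 11.3% lower. At E10.5 against E9.5, 2 were higher and 5 lower, where 29.9% of all passed, 11.5% higher and 18.4% lower. At E11.5 against E10.5 none was higher and 1 lower, where 7.19% passed, 3.59% higher and 3.61% lower. At E12.5 against E11.5, 2 were higher and none lower, where 7.21% passed, 4.12% higher and 3.09% lower. At E15.5 against E12.5, 1 was higher and 4 lower, where 15.1% passed, 6.81% higher and 8.27% lower. In female against male E15.5 PGC 1 was higher and none lower, where 9.68% passed, 4.33% higher and 5.35% lower. Irak3, an inhibitory kinase of the pathway, rose at E9.5 against E7.75 epiblast by a log2 fold change of 3.03 ± 0.41 (SE; adjusted p = 9.14e-05) and fell by 3.24 ± 0.45 at E10.5 against E9.5 (adjusted p = 0.000123). These comparisons share the E9.5 libraries, which hold the high marker sums of other cell types given above, and the part of those cells in the result was not tested. Another scaling, quantile normalization, moved the split of calls at E9.5 against E7.75 epiblast to 2028 higher and 2173 lower, against 2422 and 1686 without it. At E10.5 against E9.5 it gave 2068 higher and 1931 lower, against 1711 and 2732, and moved the median log2 fold change of all genes to 0.03, against -0.16 without it.

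**Figure D3:**
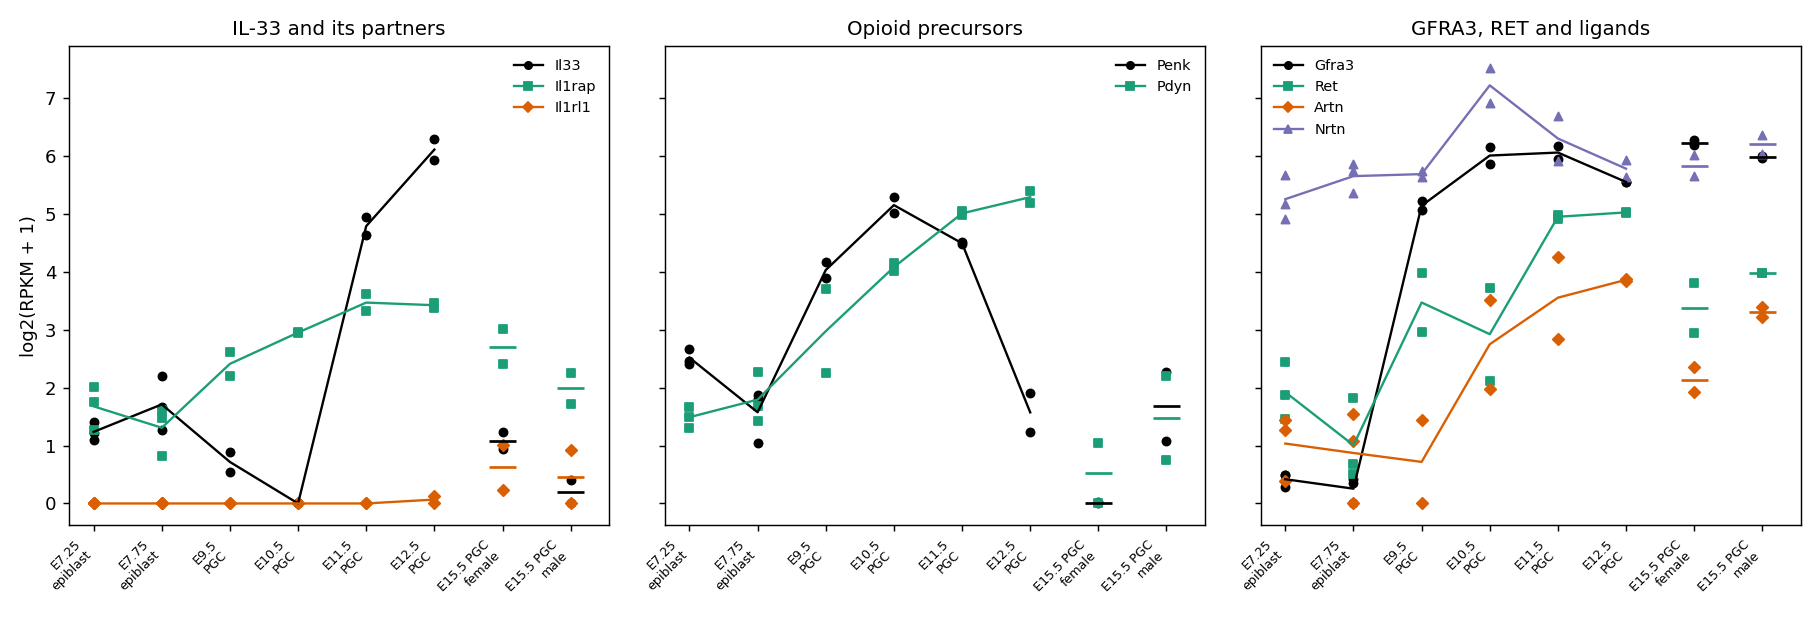
Level in log2(RPKM + 1) (shared vertical axis) of Il33, Il1rap and Il1rl1, of the opioid precursors Penk and Pdyn, and of Gfra3, Ret, Artn and Nrtn, by group along the horizontal axis. Points are libraries, lines join the group means of these log2 values up to E12.5, and short bars are those of female and male E15.5 PGC; Penk is lower at E12.5 than at E11.5 while Pdyn stands highest at E12.5, and Il1rl1 stays at or near 0.

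Penk (ENSRNOG00000008943) was high earlier, from E9.5 to E11.5, and low at E12.5. Its libraries held 17.1 and 13.8 RPKM at E9.5, 37.9 and 31.4 RPKM at E10.5 and 21.7 and 21.3 RPKM at E11.5. At E12.5 they held 1.35 and 2.77 RPKM. Female E15.5 PGC had 0 and 0.0222 RPKM, and male E15.5 PGC 3.83 and 1.11 RPKM. The 6 libraries of E9.5 to E11.5 stood above all others, and both male E15.5 libraries above both female ones. In epiblast, Penk stood at 4.32 to 5.38 RPKM at E7.25 and 1.07 to 2.64 RPKM at E7.75, without overlap between the days. The mean at E9.5 was 15.4 ± 2.34 RPKM, against 2.07 ± 0.873 RPKM in E7.75 epiblast (SD, n = 2 and 3), and 7.44-fold higher. At E12.5 the mean was 2.06 ± 1.01 RPKM, against 34.7 ± 4.61 RPKM at E10.5 (SD, n = 2 each), and 16.8-fold lower. In order of their means E10.5, E11.5, E9.5 and E7.25 followed without overlap, while male E15.5, E7.75 and E12.5 overlapped with their neighbours in that order. The E9.5 libraries hold the high marker sums of other cell types given above. The part of those cells in the E9.5 level of Penk was not tested.

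A second opioid precursor, prodynorphin (Pdyn), the source of dynorphins, peaked later than Penk. It was 3.74 and 12.03 RPKM at E9.5, 15.1 and 16.8 RPKM at E10.5, 32.0 and 30.4 RPKM at E11.5 and 35.3 and 41.1 RPKM at E12.5. The E12.5 libraries lay above those of every other group, at a stage where Penk stood at or below 2.77 RPKM. Pdyn averaged 16.0 ± 15.1 RPKM in PGC and 2.199 ± 0.856 RPKM in epiblast (SD; log2 fold change 1.58 ± 0.26 SE, adjusted p = 0.000143). At E15.5 it averaged 1.34 ± 1.58 RPKM, against 38.2 ± 4.14 RPKM at E12.5 (SD; log2 fold change -4.29 ± 0.46 SE, adjusted p = 3.69e-05). None of its single steps from E9.5 to E12.5 passed the test. The opioid receptors were listed at or near 0. Oprm1, the mu receptor that enkephalins also bind, had group means of at most 0.973 RPKM, and Oprd1 and Oprk1, the delta and kappa receptors, of at most 0.106 and 0.185 RPKM. Of the enzymes that cut the precursors in neurons, Pcsk1 and Pcsk2 had group means of at most 0.508 and 0.138 RPKM. Cpe, which trims the cut ends, averaged 24.1 ± 9.47 RPKM in PGC and 7.50 ± 1.77 RPKM in epiblast, without overlap (SD; log2 fold change 1.47 ± 0.19 SE, adjusted p = 1.49e-05). Ctsl, a lysosomal protease that in mouse and cow secretory granules cuts proenkephalin, averaged 258.5 ± 76.1 RPKM in PGC and 130.4 ± 15.0 RPKM in epiblast (SD; log2 fold change 0.93 ± 0.09 SE, adjusted p = 4.4e-07). In PGC against epiblast, 4 of the 12 tested genes of opioid peptides, receptors and processing were higher and 1 lower, beside 32.1% higher and 26.4% lower of all tested genes, with a median log2 fold change of -0.05 beside 0.09 over all genes. Without the E9.5 libraries the count was 3 higher and 3 lower, and with quantile normalization 4 higher and 3 lower. Ogfr, the receptor for opioid growth factor (met-enkephalin), was measured at group means of 44.6 to 108 RPKM, highest at E10.5 with 108 ± 34.4 RPKM, against 58.2 ± 10.4 RPKM at E9.5 (SD; log2 fold change 0.85 ± 0.21 SE, adjusted p = 0.00824). That call was lost without E10.5 replicate 2, without E9.5 replicate 1 and with the libraries of these 2 stages alone, and its highest adjusted p over the alternatives was 0.114.

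Gfra3 (ENSRNOG00000020309) and Tspan8 stood higher in every PGC library than in every epiblast library. PGC libraries held 36.2 and 32.4 RPKM at E9.5, 69.8 and 57.3 RPKM at E10.5, 71.3 and 60.3 RPKM at E11.5 and 46.0 and 45.7 RPKM at E12.5. At E15.5 they held 76.0 and 71.9 RPKM in females and 61.6 and 62.7 RPKM in males. Epiblast libraries held 0 to 0.409 RPKM. The female E15.5 libraries stood above those of all other groups. Over all days the mean was 57.6 ± 14.5 RPKM in PGC (SD, n = 12) and 0.271 ± 0.152 RPKM in epiblast (SD, n = 6), 213-fold higher, a ratio that rests on an epiblast mean near 0. The difference of mean log2(RPKM + 1) was 5.49, against 6.40 for Tspan8. Within PGC, E11.5, E10.5 and male E15.5 overlapped with their neighbours in the order of means, E12.5 stood below them at 45.8 ± 0.188 RPKM, and E9.5 was lowest at 34.3 ± 2.71 RPKM.

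Tspan8 (ENSRNOG00000004411) was the most abundant of the 5 in PGC and also separated them from epiblast. It held 198 and 208 RPKM at E9.5, 413 and 362 RPKM at E10.5, 394 and 396 RPKM at E11.5 and 411 and 387 RPKM at E12.5. At E15.5 it stood at 152 and 190 RPKM in female PGC and at 153 and 113 RPKM in male PGC. In epiblast it was 0.814 to 5.74 RPKM at E7.25 and 0.635 to 2.71 RPKM at E7.75. PGC and epiblast did not overlap, and E10.5, E11.5 and E12.5 overlapped with each other. The mean was 282 ± 120.5 RPKM in PGC and 2.40 ± 1.85 RPKM in epiblast (SD, n = 12 and 6), 117-fold higher. At E15.5 it was 152 ± 31.4 RPKM, against 399 ± 16.4 RPKM at E12.5, and 2.62-fold lower. Among tested genes Tspan8 ranked at the 91.1st to 98.6th percentile in PGC libraries and at the 19.8th to 46.3rd in epiblast libraries. A difference within epiblast was found after the values were seen: Tspan8 averaged 0.724 ± 0.127 RPKM in the 2 female libraries and 3.24 ± 1.70 RPKM in the 4 male libraries (SD), without overlap.

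Across the 8 group means of log2(RPKM + 1), Gfra3 and Tspan8 correlated at r = 0.97, while the other 9 pairs of the 5 genes lay between r = -0.32 and 0.48. The 8 points share their libraries, and epiblast against PGC sets most of the range of these 2 genes. Their nearest genes among 11093 compared included germ line factors. For Tspan8 they were Nanos3, an RNA regulator needed for PGC survival, Tfap2c, a transcription factor of PGC specification, Tmem132c, Cln6 and Foxi3, at r = 0.990 to 0.993. For Gfra3 they were Mvp, AC095390.1, Parp12, Mum1 and Tfap2c, at r = 0.988 to 0.994. As many as 110 genes lay above r = 0.95 with Tspan8 and 106 with Gfra3, against 7 for Sparc, 6 for Il33 and 4 for Penk. The nearest to Il33 were AABR07028834.1, 7SK, U5, AABR07067403.1 and Zfp955a (r = 0.957 to 0.976), 2 of them small RNA genes. These 2, 7SK and U5, averaged 29.2 and 16.2 RPKM at E11.5 and 23.8 and 13.55 RPKM at E12.5. In every other group they were listed at 0. Whether a trait of the libraries of these stages has a part in this shared pattern was not tested. Tfpt, Slc35c2, Wdr24, Bad and AABR07070599.1 lay nearest to Penk (r = 0.949 to 0.990), and Elk3, Tmem131, Prom1, Zfp35 and Pcmtd2 to Sparc (r = 0.952 to 0.978).

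The promoters of Tspan8 and Gfra3 are shown because these 2 genes moved together over the groups. Each is the 250 bases before the RefSeq start in GRCr8, 5′ to 3′ in the direction of transcription, from chr7:53330937-53331186 (plus strand) and chr18:26600226-26600475 (minus strand). Neither window held GCCNNNGGC, TATAAA or CACGTG on either strand, so no base is in capitals.
Tspan8 promoter: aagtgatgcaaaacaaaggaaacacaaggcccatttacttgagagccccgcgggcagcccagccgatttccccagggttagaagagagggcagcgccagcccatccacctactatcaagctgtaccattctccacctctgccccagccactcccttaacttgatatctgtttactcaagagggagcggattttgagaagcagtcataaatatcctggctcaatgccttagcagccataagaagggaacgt
Gfra3 promoter: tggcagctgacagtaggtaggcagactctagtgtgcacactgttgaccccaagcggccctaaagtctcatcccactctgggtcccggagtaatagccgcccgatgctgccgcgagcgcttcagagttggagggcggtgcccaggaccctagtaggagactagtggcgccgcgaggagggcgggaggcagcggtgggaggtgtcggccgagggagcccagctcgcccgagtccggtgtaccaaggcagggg
The 2 windows differed in composition: Gfra3 had 18 CpG and 66.0% G and C, and Tspan8 6 CpG and 51.2%. The CpG number of Gfra3 lay at the 81.6th percentile of all promoters and that of Tspan8 at the 54.8th, where the upper quartile is 15 CpG. Sparc, from chr10:40038817-40039066 on the minus strand, had 2 CpG and 60.0% G and C and none of the 3 motifs.

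Ret and Artn, the genes of the partners of GFRA3, were also higher in PGC of all days together than in epiblast. Ret averaged 17.4 ± 10.5 RPKM in PGC and 2.07 ± 1.49 RPKM in epiblast (SD; log2 fold change 2.49 ± 0.28 SE, adjusted p = 3.24e-06). It held 6.78 and 14.8 RPKM at E9.5, 3.34 and 12.2 RPKM at E10.5, 30.6 and 29.2 RPKM at E11.5 and 31.5 and 31.6 RPKM at E12.5. The 4 libraries of E11.5 and E12.5 lay above all others, whereas Gfra3 had reached 57.3 RPKM or more by E10.5. The rise of Ret at E11.5 against E10.5 (log2 fold change 2.03 ± 0.56 SE, adjusted p = 0.0424) was lost without E10.5 replicate 1, without either E11.5 replicate and under each other kind of alternative, with an adjusted p of up to 0.284. Artn, the ligand of GFRA3, averaged 7.59 ± 5.61 RPKM in PGC and 1.07 ± 0.766 RPKM in epiblast, with overlap (SD; log2 fold change 1.77 ± 0.33 SE, adjusted p = 0.000379). At E9.5 it held 1.70 and 0 RPKM, against 0 to 1.90 RPKM in E7.75 epiblast, and did not pass the test (log2 fold change -0.15). Its replicates differed at E10.5 (10.5 and 2.94 RPKM) and at E11.5 (18.2 and 6.18 RPKM) and were close at E12.5 (13.4 and 13.7 RPKM). Nrtn, the ligand of GFRA2, stood at 29.2 to 57.2 RPKM in epiblast libraries and at 183 and 119.5 RPKM at E10.5, where it was higher than at E9.5 by a log2 fold change of 1.53 ± 0.30 (SE; adjusted p = 0.00156). Gdnf, the ligand of GFRA1, had group means of at most 0.946 RPKM.

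Gfra1 and Gfra2, other co-receptors of RET, stayed low where Gfra3 was high, and the levels of Gfra4 and Gfral are not reported here. Gfra1, the GDNF co-receptor, was at 0 in every epiblast library's list and held 3.67 and 2.49 RPKM at E9.5. In the 6 libraries from E10.5 to E12.5 it was listed at 0 in 4 and reached 1.44 RPKM. At E15.5 it was 2.35 and 1.24 RPKM in female PGC and 3.97 and 2.95 RPKM in male PGC. Gfra2, the neurturin co-receptor, held at most 2.68 RPKM in a library and was lower in PGC (log2 fold change -1.02 ± 0.19 SE, adjusted p = 0.0004). Dok4, an adaptor bound by RET, averaged 84.7 ± 3.21 RPKM at E9.5, against 6.27 ± 1.86 RPKM in E7.75 epiblast (SD; log2 fold change 3.59 ± 0.39 SE, adjusted p = 1.37e-05). At E10.5 it averaged 7.37 ± 3.16 RPKM, against 84.7 ± 3.21 RPKM at E9.5 (SD; log2 fold change -3.41 ± 0.42 SE, adjusted p = 5.83e-05). Up to E12.5 its high level was thus in the E9.5 libraries, which hold the high marker sums of other cell types, whose part in it was not tested. At E15.5 Dok4 averaged 30.7 ± 7.51 RPKM in female PGC and 4.44 ± 0.523 RPKM in male PGC (SD; log2 fold change 2.53 ± 0.42 SE, adjusted p = 0.00198). Etv5, a transcription factor induced downstream of RET in other cells, averaged 75.8 ± 21.6 RPKM at E15.5, against 157 ± 5.11 RPKM at E12.5 (SD; log2 fold change -1.08 ± 0.15 SE, adjusted p = 0.000351). In PGC against epiblast, 7 of the 16 tested genes of the GDNF family list were higher and 3 lower, beside 32.1% and 26.4% of all tested genes, with a median log2 fold change of 0.45 beside 0.09 over all genes. At E9.5 against E7.75 epiblast 5 were higher and none lower, beside 16.3% higher and 11.3% lower of all tested genes. At E10.5 against E9.5, 2 were higher and 5 lower, beside 11.5% and 18.4%. At E15.5 against E12.5, 2 were higher and 2 lower, beside 6.81% and 8.27%.

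Other tetraspanins included genes that were higher and genes that were lower in PGC. In PGC against epiblast, 7 of 22 tested tetraspanin genes besides Tspan8 were higher and 10 lower, beside 32.1% higher and 26.4% lower of all tested genes, with a median log2 fold change of -0.36 beside 0.09 over all genes. Cd82, a tetraspanin known as a metastasis suppressor, came closest to Tspan8 in its log2 fold change. It averaged 19.4 ± 11.4 RPKM in PGC and 0.239 ± 0.275 RPKM in epiblast, without overlap (SD; log2 fold change 3.78 ± 0.15 SE, adjusted p = 1.18e-10). Like Tspan8 it was lower at E15.5, at 4.59 to 6.07 RPKM, than at E12.5, at 26.9 and 27.4 RPKM, with a log2 fold change of -2.13 ± 0.27 (SE; adjusted p = 0.00013), a call lost with a pseudocount of 0.1 (adjusted p = 0.0557). Cd9, the tetraspanin of egg and sperm fusion, averaged 112.5 ± 30.9 RPKM in PGC and 39.8 ± 3.40 RPKM in epiblast, without overlap (SD; log2 fold change 1.43 ± 0.09 SE, adjusted p = 1.23e-08). Cd63, a tetraspanin of late endosomes and exosomes, went the other way, with 73.8 ± 89.2 RPKM in PGC and 201 ± 43.3 RPKM in epiblast (SD; log2 fold change -2.11 ± 0.16 SE, adjusted p = 6.61e-08). Its group means were 247, 90.4, 32.9 and 13.5 RPKM from E9.5 to E12.5. Tspan7, a neuronal tetraspanin, differed by sex at E15.5, with 118.5 ± 2.12 RPKM in female PGC and 10.4 ± 4.46 RPKM in male PGC (SD, n = 2 each; log2 fold change 3.45 ± 0.26 SE, adjusted p = 2.55e-06). Tspan8 had 171 ± 26.8 RPKM in female PGC and 133 ± 28.1 RPKM in male PGC (SD), with overlap. Cd151 and Cd81, further partners of integrins, differed in level: Cd151 had group means of at most 0.107 RPKM and Cd81 of 29.9 to 94.9 RPKM.

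**Figure D4:**
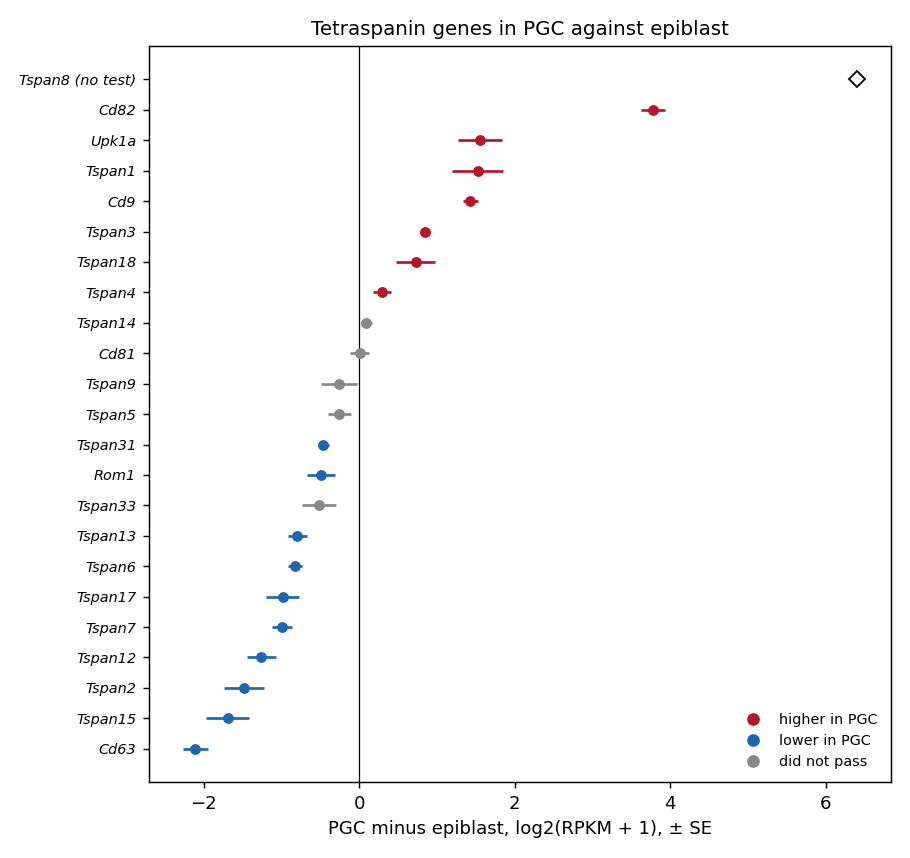
Log2 fold change of 22 tested tetraspanin genes in PGC against epiblast (horizontal axis, difference of log2(RPKM + 1), error bars are SE) by gene (vertical axis), with genes that passed the limma test higher in PGC in red, lower in blue, and those that did not pass in grey. The open diamond is Tspan8, shown without a test because its levels chose it; Cd82 has the next largest value, at 3.78.

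Of 9 tested genes for proteins that sit with tetraspanins in the membrane, 3 were higher in PGC and 5 lower, beside 32.1% higher and 26.4% lower of all tested genes. Itga6, the integrin alpha 6 laminin receptor, had a log2 fold change of -2.98 ± 0.17 (SE; adjusted p = 4.34e-09), and Cldn7, a tight junction protein that binds tetraspanins with EPCAM, of -2.28 ± 0.17 (SE; adjusted p = 5.15e-08). Igsf8, a direct partner of CD9 and CD81, was higher by 1.73 ± 0.17 (SE; adjusted p = 9.54e-07). Epcam, the epithelial adhesion protein used to mark germ cells, averaged 180.5 ± 12.4 RPKM at E9.5, against 379 ± 15.15 RPKM in E7.75 epiblast (SD; log2 fold change -1.07 ± 0.11 SE, adjusted p = 8.44e-06), while Tspan8 was 103-fold higher there. Of the 7 tested germ cell surface genes 4 were higher and 3 lower in PGC, beside those same shares of all tested genes. Kit, the receptor for stem cell factor, averaged 78.5 ± 22.0 RPKM in PGC and 5.86 ± 3.33 RPKM in epiblast, and Cxcr4, the receptor that guides migration, 23.4 ± 9.50 RPKM in PGC and 1.93 ± 1.79 RPKM in epiblast (SD; log2 fold changes 3.69 and 3.19, adjusted p = 2.27e-08 and 3.4e-07). Alpl, the tissue-nonspecific alkaline phosphatase that marks PGC, stood at 28.3 ± 4.60 RPKM at E9.5, against 27.0 ± 4.90 RPKM in E7.75 epiblast, and at 148 ± 18.2 RPKM at E10.5 (SD; log2 fold change 2.35 ± 0.23 SE against E9.5, adjusted p = 1.36e-05). Tspan8 and Gfra3 were thus at 50.8% and 46.4% of their highest means at E9.5, where both Alpl libraries lay within the range of E7.75 epiblast. The E9.5 libraries hold the high marker sums of other cell types, and their germ cell markers summed to 426 and 603 RPKM, against 657 and 705 RPKM at E10.5. The part of other cells in the E9.5 levels of Tspan8, Gfra3, Alpl and Epcam was not tested.

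Sparc (ENSRNOG00000012840) had no constant difference between PGC and epiblast. It stood at 55.7 and 39.5 RPKM at E9.5, 15.7 and 8.77 RPKM at E10.5, 28.7 and 24.5 RPKM at E11.5 and 28.3 and 35.9 RPKM at E12.5. At E15.5 it held 6.65 and 4.64 RPKM in female PGC and 2.54 and 1.63 RPKM in male PGC. The 6 epiblast libraries held 19.5 to 27.1 RPKM. The E9.5 pair stood above all other libraries and the 4 E15.5 libraries below all others, both female ones above both male ones. The mean was 21.0 ± 17.2 RPKM in PGC and 22.5 ± 2.78 RPKM in epiblast (SD), and the libraries overlapped. At E15.5 the mean was 3.87 ± 2.25 RPKM, against 32.1 ± 5.37 RPKM at E12.5, and 8.30-fold lower. In the order of means E12.5, E11.5, E7.75 and E7.25 overlapped with their neighbours among these 4, and E10.5, next after E7.25, did not overlap with it. Mesenchyme and mesothelium markers, whose cells also make Sparc, summed to 175 and 176 RPKM in the E9.5 libraries where Sparc was highest. Prrx2 and Twist1 gave the largest values among them. Endothelium markers summed to 219 RPKM in E9.5 replicate 1 and 60.2 RPKM in replicate 2. The part of such cells in that level of Sparc was not tested. At E12.5 the mesenchyme and mesothelium markers summed to 3.09 and 9.41 RPKM, against 1.92 to 8.88 RPKM in epiblast libraries. The endothelium markers summed to 16.75 and 24.25 RPKM, against 17.57 to 20.85 RPKM in epiblast libraries, with different members behind the sums. Plvap averaged 12.7 and 13.1 RPKM in E7.25 and E7.75 epiblast and 3.78 RPKM at E12.5. Egfl7 averaged 5.47 and 4.82 RPKM in epiblast and 8.28 RPKM at E12.5. Esam and Cldn5 averaged 4.51 and 1.525 RPKM at E12.5, against at most 0.00637 RPKM in the epiblast groups. Similar sums thus do not show that the share of such cells was alike. Sparc stood at 28.3 and 35.9 RPKM at E12.5, and the part of other cells there was not tested either.

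Relatives of SPARC and other matrix, basement membrane and collagen genes included genes that were highest at E9.5 and genes that fell after E12.5. Tnc, the matrix protein tenascin C, averaged 5.80 ± 2.04 RPKM at E9.5, against 0 RPKM listed in every E7.75 epiblast library (log2 fold change 2.73 ± 0.27 SE, adjusted p = 5.18e-06). Fn1, fibronectin, averaged 70.5 ± 16.2 RPKM at E9.5, against 20.1 ± 1.43 RPKM in E7.75 epiblast (SD; log2 fold change 1.74 ± 0.26 SE, adjusted p = 0.000204), and 21.7 ± 5.02 RPKM at E10.5. Col1a1, the main fibrillar collagen, averaged 8.61 ± 3.97 RPKM at E9.5, against 0.317 ± 0.362 RPKM in E7.75 epiblast (SD; log2 fold change 2.84 ± 0.32 SE, adjusted p = 2.28e-05), and is itself among the 12 mesenchyme and mesothelium markers. The part of such cells in these E9.5 values was not tested. Serpinh1, the collagen chaperone HSP47, held 95.5 to 109 RPKM in the libraries of E12.5 and averaged 26.4 ± 8.19 RPKM at E15.5, against 102 ± 9.25 RPKM at E12.5 (SD; log2 fold change -1.96 ± 0.19 SE, adjusted p = 2.16e-05). Fstl1, a secreted relative of SPARC, averaged 16.2 ± 4.57 RPKM at E15.5, against 62.4 ± 0.880 RPKM at E12.5 (SD; log2 fold change -1.92 ± 0.17 SE, adjusted p = 9.32e-06). Cyr61, a matricellular protein, had a log2 fold change of -2.38 ± 0.26 (SE; adjusted p = 3.75e-05) in the same comparison. Col4a1, a basement membrane collagen that SPARC binds, was lower in PGC than in epiblast (log2 fold change -2.32 ± 0.18 SE, adjusted p = 9.85e-08), with 0 RPKM listed in both E12.5 libraries, where Sparc was at its second highest mean. Smoc1, another SPARC relative, averaged 9.12 ± 11.1 RPKM at E9.5, against 0.226 ± 0.374 RPKM in E7.75 epiblast (SD, log2 fold change 2.43 ± 0.78 SE, adjusted p = 0.0312 by limma). That call was lost under 5 alternatives, among them no filter and the libraries of the 2 sides alone. Smoc2, a further relative, was lower in PGC (log2 fold change -1.81 ± 0.18 SE, adjusted p = 1.13e-06), and Sparcl1, the closest relative, had group means of at most 3.45 RPKM, at E9.5. Its rise in PGC against epiblast (log2 fold change 0.55 ± 0.16 SE, adjusted p = 0.00915) was lost without the E9.5 libraries (adjusted p = 0.169).

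In PGC against epiblast, 5 of the 13 tested SPARC family and matricellular genes were higher and 3 lower, beside 32.1% higher and 26.4% lower of all tested genes, with a median log2 fold change of -0.07 beside 0.09 over all genes. Without the E9.5 libraries 3 were higher and 3 lower, of 11 tested. At E9.5 against E7.75 epiblast 6 were higher and 2 lower, beside 16.3% and 11.3% of all tested genes. None was higher and 4 lower at E10.5 against E9.5, beside 11.5% and 18.4%, and 1 was higher and 4 lower at E15.5 against E12.5, beside 6.81% and 8.27%. Of the 15 tested basement membrane and collagen genes, 3 were higher in PGC and 6 lower, against the same shares of 32.1% and 26.4%, and without the E9.5 libraries 2 of 14 tested were higher and 8 lower. Of these genes 5 were higher and 1 lower at E9.5 against E7.75 epiblast (16.3% and 11.3% of all tested genes), none higher and 7 lower at E10.5 against E9.5 (11.5% and 18.4%), and none higher and 3 lower at E15.5 against E12.5 (6.81% and 8.27%).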

How the data were processed

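Per the labels' protocols, RNA came from a PicoPure isolation and libraries from the SMART-Seq v4 kit for very small inputs. The authors deposited RPKM in 1 table with 1 column per library, and 0 columns of other samples. Without stating roles, the submitters' processing notes list the build rn6 and the tools TopHat2 2.1.0, Cufflinks 2.2.1, cutadapt 1.14 and bcl2fastq 2.18.0.12. The sources used here do not give the annotation release, strand use or handling of reads that map to several genes. Overlapping and near-identical genes are thus uncertain, and RPKM shifts when a few abundant genes change.

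The 5 genes and the gene lists were chosen with earlier results of these data known. Of 234 list genes 224 were found by symbol. Values were taken as log2(RPKM + 1), which understates changes of low genes. The 14865 genes with at least 1 RPKM in at least 2 of 18 libraries were fitted in R 4.3.3 by limma 3.58.1, its variance prior following mean expression, in 8 groups (10 residual degrees of freedom) with epiblast sexes together, so that all libraries share 1 estimate of the spread. The fit was also run on simulated data for E12.5 against E11.5, with normal noise of the same spread in all groups, as the fit assumes. It thus cannot show how the fit does where groups differ in spread. P-values were two-sided and adjusted by Benjamini-Hochberg within each of 7 comparisons, at 0.05. Groups came from the sample titles, which do not call replicates separate animals; p-values thus measure only how libraries of a group differ. PGC against epiblast compares the mean of 6 groups with the mean of 2. A fold given in words is a ratio of mean RPKM; log2 fold changes are differences of log2(RPKM + 1).

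Named partners were Il1rl1, Il1rap, Myd88, the opioid receptors, Pcsk1, Pcsk2, Cpe, Ret and its ligands and co-receptors, 5 tetraspanins, Epcam and 8 matrix genes, whatever their values. Each list and comparison added at most 2 rises and 2 falls with at least 5 RPKM and no overlap. Not every named partner, and not every gene that this rule names, is reported here. For a gene named by this rule, values of other comparisons were chosen after they were seen. Each member's 5 nearest genes by Pearson r over group means, among genes with a group mean of 5 RPKM, were named. Alternatives were a pseudocount of 0.1, no filter, quantile normalization, the replicate number as a block, the libraries of the 2 sides alone and leaving out libraries. After the data were seen, PGC against epiblast was also fitted without the E9.5 libraries and without those of E10.5 and E11.5. The table gives no read counts, so no counting intervals are given. Python 3.11.15 and matplotlib 3.10.9 drew the figures. Promoters are from RefSeq's GRCr8 table, whose coordinates are not those of rn6.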

Additional observations from a re-analysis of the deposited data

How the results depend on the processing

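The table gives RPKM without read counts, and most groups have 2 libraries, so the spread of 1 group is known poorly. Replicates of E9.5, of E10.5 and of female E15.5 differed by a median of 0.404, 0.335 and 0.332 on the log2 scale, against 0.221 to 0.246 in the other groups. With the libraries of the 2 sides alone, 1274 genes passed at E10.5 against E9.5 (4443 with all libraries), 82 at E11.5 against E10.5 (1069), 1611 at E12.5 against E11.5 (1072) and 731 in female against male E15.5 PGC (1439). For PGC against epiblast that alternative is the same fit. Leaving out 1 library in turn gave 8047 to 8783 genes for PGC against epiblast (8694 with all), 3249 to 3542 at E9.5 against E7.75 epiblast (4108) and 3469 to 4050 at E10.5 against E9.5. It gave 347 (without E11.5 replicate 2) to 1342 at E11.5 against E10.5, 219 (without E12.5 replicate 2) to 487 at E12.5 against E11.5, 884 (without E12.5 replicate 2) to 1981 at E15.5 against E12.5 (2241) and 635 to 947 in female against male E15.5 PGC. The cause was not tested. The log2 difference between the highest group and the next ranged over left-out libraries from 1.141 to 1.50 for Il33, 0.53 to 0.79 for Penk, 0.05 to 0.29 for Gfra3, -0.03 to 0.05 for Tspan8 and 0.30 to 0.79 for Sparc. Quantile normalization moved that of Tspan8 to 0.18, against 0.01. With the replicate block 8558, 3960, 4346, 943, 958, 2118 and 1349 genes passed in the 7 comparisons in the order of the stages, and 4 of 122 calls of named genes were lost. Replicate numbers did not pair the libraries: over 15 pairs of groups, same-numbered libraries' deviations correlated at r = -0.133 to 0.058. Of the 122 calls 44 were lost with at least 1 left-out library, 32 of 94 with the libraries of the 2 sides alone, 16 with a pseudocount of 0.1, 12 with no filter and 8 with quantile normalization. Without the E9.5 libraries 1 of 26 calls in PGC against epiblast was lost, and without those of E10.5 and E11.5 none.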
